A study of Mus musculus with 6 samples.

Results

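The cells described here are the Ly6d-low epithelial cells of mouse intestinal organoids kept for 4 days in a medium that held an RXR (retinoid X receptor) antagonist. They were chosen by 3 limits on each barcode of that library. Ly6d, a surface protein gene of the Ly6 family, had to be at or below 1 UMI per 10000 UMIs of the cell, where a UMI is 1 counted RNA molecule. The hormone granule genes Chga and Chgb had to stay below 5 UMIs in sum, and so did the mucus genes Muc2, Fcgbp and Clca1. In all, 1710 of the library's 3570 barcodes met the limits, which is 47.9% (95% exact binomial interval 46.2% to 49.6%), out of 29565 barcodes in 6 libraries. They are compared below with the 1214 antagonist cells that had Ly6d at 5 or more per 10000, called Ly6d-high cells. Since measured values chose both classes, their difference is given as a description by size, with no test.

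Organoids were grown from wild type C57BL/6 mice aged 8 weeks, and the cells of every library were sorted to remove debris and dead cells. The day-4 libraries, 1 for each condition, had been given DMSO as vehicle, RXR antagonist (5 µM) or all-trans retinoic acid (10 µM) over 96 hours, or had been kept in vitamin A-free medium. Treatment was given at day 0 and again at day 3, when, per the labels, the medium of the day-4 cultures also lost its Wnt3a, ROCK inhibitor and GSK3B inhibitor. The 2 day-1 libraries were vehicle organoids at 24 hours. The labels write the dose unit as "μm", which is read here as micromolar, and they do not say how many mice or cultures stand behind a library. With 1 library for the antagonist, treatment and library cannot be told apart.

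RXRs are nuclear receptors and bind DNA as the common partner of the receptors for retinoic acid, vitamin D, fatty acids, bile acids and oxysterols (RAR, VDR, PPAR, FXR and LXR), so an antagonist can touch many pathways at once. The gut epithelium is renewed from crypt stem cells that carry Lgr5 and give rise to absorptive enterocytes and to secretory cells. After damage, and early in the growth of organoids, epithelial cells pass through a regenerative, fetal-like state marked by Ly6a (Sca-1), annexins, S100a6, Clu and Msln.

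Most members had no Ly6d at all: 1370 had 0 UMIs, and the other 340 had a median of 0.710 per 10000. The class is a range of a continuous value and has an edge with cells on both sides. There were 310 members above 0.5 and up to 1 per 10000, and 196 cells lay just outside, above 1 and up to 2. A further 285 members had fewer than 10000 UMIs, so that a single Ly6d UMI would have put them over the limit. The rule kept nearly all cells elsewhere: 4569 of 4787 barcodes in the day-4 vehicle, 5222 of 5365 under retinoic acid, 4640 of 4963 without vitamin A, and 5152 of 5576 and 4481 of 5304 at day 1. Ly6d at 5 or more per 10000 was seen in 1, 3, 2, 8 and 11 barcodes of those libraries. The rule thus divides the antagonist library and keeps nearly all of the others.

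**Figure D1:**
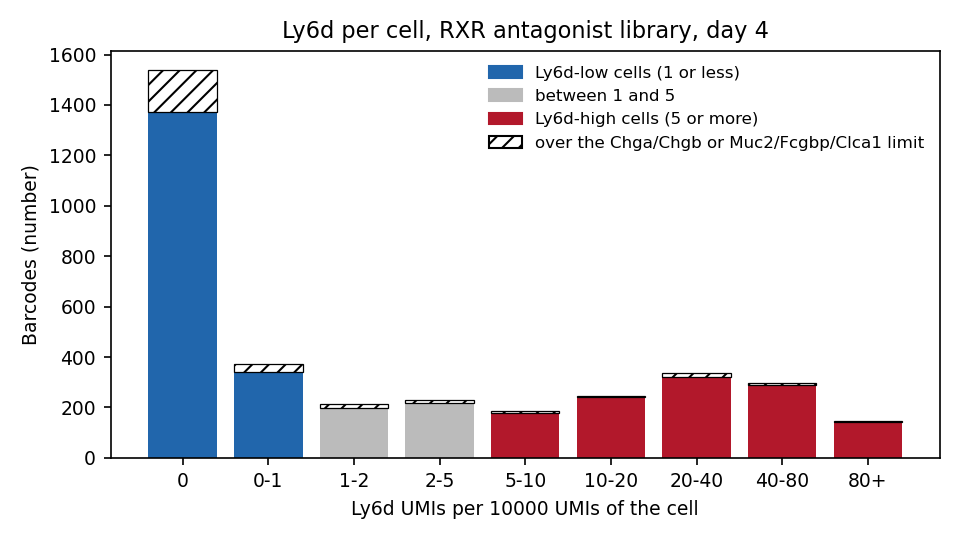
Number of barcodes of the RXR antagonist library (y axis) by Ly6d UMIs per 10000 UMIs of the cell (x axis), with hatching for barcodes over the Chga/Chgb or Muc2/Fcgbp/Clca1 limit. The highest bar holds the 1370 members with 0 Ly6d UMIs, and the rest of the cells spread from under 1 to over 80 per 10000 with no empty bin between members and Ly6d-high cells.

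Depth was similar in both classes, with a median of 12949 UMIs and 3741 genes per member and 14756 UMIs and 3782 genes per Ly6d-high cell. Mitochondrial RNA was not: its median share was 2.26% of UMIs in members, 1.63% in the 412 cells between the classes, 1.31% in Ly6d-high cells and 3.61% in day-4 vehicle cells under the same rule. Because this share moves with Ly6d, values from cells with 1% to 2% mitochondrial UMIs are given for the gene counts and for some lists and genes. The other ratios are given from all cells of both classes only. Library totals ranged from 49364894 to 66406098 UMIs, and members shared 1 to 4 barcodes with each other library.

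Of the 3 marker genes attached to these cells, only Dmbt1 set them apart from the Ly6d-high cells. Levels are given as CPM, the UMIs of a gene per 1000000 UMIs summed over the cells of a class, with 95% Poisson intervals for counting error only. Dmbt1, which encodes a secreted mucosal defence protein, stood at 1459 CPM (1443 to 1475) in members and at 558.5 (547.7 to 569.4) in Ly6d-high cells. It was lower in every other library: 367 in the vehicle, 534 under retinoic acid, 278 without vitamin A, and 31.7 and 19.5 at day 1. After thinning each cell to 5000 UMIs, 89.6% of members and 58.5% of Ly6d-high cells had a Dmbt1 UMI (91.8% and 68.1% unthinned). Nupr1, a stress-induced chromatin protein, and Azgp1, a secreted lipid-binding glycoprotein, did not separate the classes. Nupr1 was at 1118 CPM in members and 1169 in Ly6d-high cells, against 56.9 in the vehicle, 2.78 under retinoic acid, 131 without vitamin A, and 6.73 and 11.8 at day 1. Azgp1 was at 34.0 CPM in members and 37.9 in Ly6d-high cells, and below 1 in the other 5 libraries. These 2 genes therefore mark the antagonist library in both classes.

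**Figure D2:**
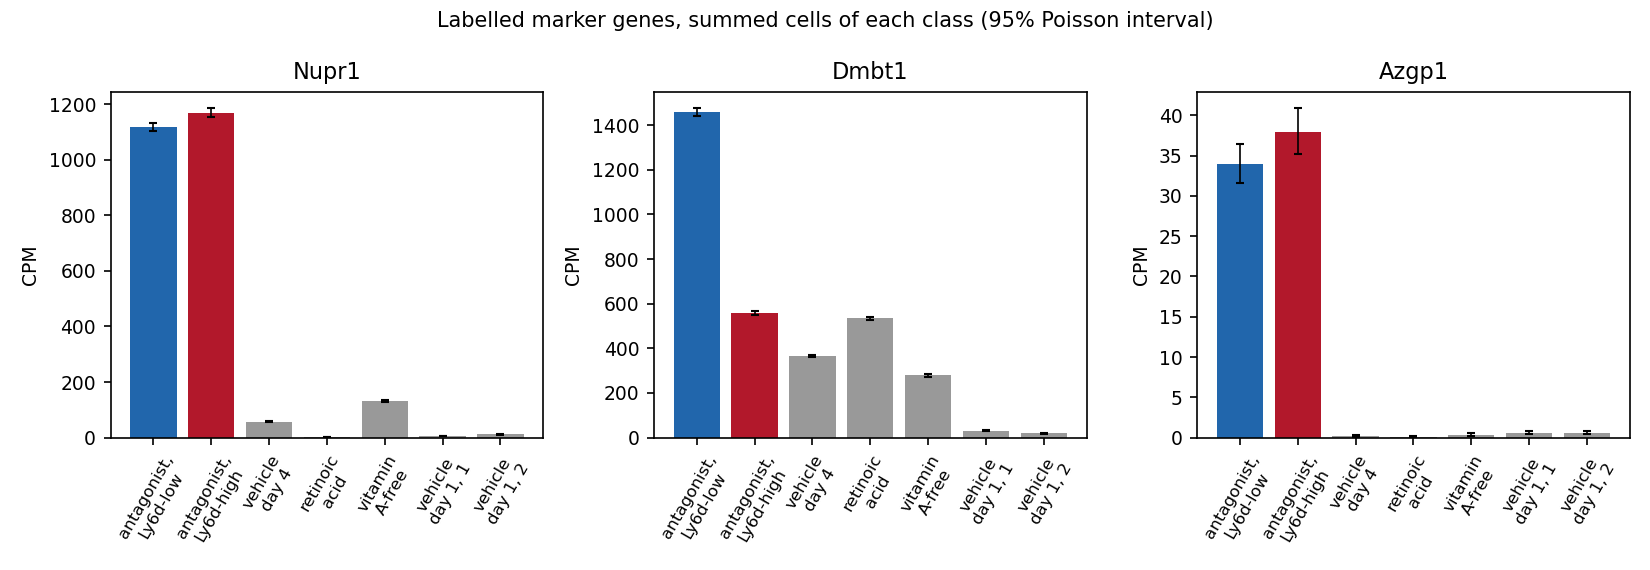
CPM of Nupr1, Dmbt1 and Azgp1 (y axes, linear from 0) in Ly6d-low and Ly6d-high cells of the antagonist library and in cells meeting the Ly6d-low rule in the other 5 libraries (x axis). Bars are summed cells and error bars are 95% Poisson intervals; Nupr1 and Azgp1 are alike in both antagonist classes, while Dmbt1 is higher in the Ly6d-low cells, 1459 against 558.5.

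The epithelial part of the label held. At 5000 UMIs, Epcam was found in 99.9% of members, Krt8 in 100% and the leukocyte gene Ptprc in 0%. Summed marker levels of other cell types were low in members: 9.29 CPM for 7 enteroendocrine genes, 9.02 for 5 tuft cell genes, 5.05 for 5 immune genes (Cd3e, Cd79a and Tyrobp at 0 UMIs) and 0 for 2 red blood cell genes. The rule capped Chga and Chgb, which are among the 7 enteroendocrine genes, so that low sum was partly set by the choice of cells. Fibroblast markers summed to 0.0447 CPM, with Col1a2, Col3a1 and Dcn at 0 UMIs. The 7 goblet markers summed to 851 CPM, most of it Agr2 at 590, which also occurs in other secretory and progenitor cells. Muc2, Fcgbp and Clca1 are among these 7 and were likewise capped by the rule. The 6 Paneth markers summed to 123 CPM, nearly all Itln1 at 120.5, with Defa17 at 0 UMIs. The goblet sum was 138 CPM in vehicle cells under the same rule and 918 in Ly6d-high cells, but 441 in the 1171 Ly6d-high cells inside the same secretory limits as members.

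Free RNA in droplets can put a few UMIs of a gene into cells that do not make it, so levels were also read in 31 enteroendocrine-like cells of the same library, a cluster led by Cck, Gcg and Chgb. Their median depth was 6643 UMIs. Ly6d was at 16.2 CPM in members and 14.2 in this cluster, but the rule itself holds it low in members, so this pair says nothing about free RNA. The regenerative genes, which the rule did not set, differed: S100a6 was at 1355 CPM in members and 99.7 in the enteroendocrine-like cells, Lgals3 at 1339 and 80.7, and Ly6a at 526 and 61.7. At 5000 UMIs, 44.3% of members had a Ly6a UMI, and 30.4% of 23 enteroendocrine-like cells (13.2% to 52.9%), so the share of cells with Ly6a was not separable from that background although the level was. For Lgals3 the shares were 88.2% and 4.35% (0.110% to 21.9%). Dmbt1 (4.75 CPM) and Fabp1 (42.7 CPM) were also far lower in that cluster than in members, whereas Krt7 (779 against 722 in members) and Anxa5 (423 against 526) were not. Agr2 was higher in that cluster, at 1614 CPM against 590 in members and 339 in Ly6d-high cells, and it reached 32626 in the goblet-like cluster of 144 barcodes. Since Ly6d-high cells of the same library held less, the enteroendocrine-like cluster gives no background level for Agr2. How much of the members' Agr2 was free RNA was not tested. Pigr was at 180 CPM in the enteroendocrine-like cells, between members (283) and Ly6d-high cells (24.3).

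Within the antagonist library, crypt stem cell and early absorptive genes were more often higher than lower in members against Ly6d-high cells. Regenerative, squamous-type and keratin genes were mostly lower. Of 7881 genes that reached 10 CPM in a class, 156 were at least 2-fold higher in members (1.98%) and 215 at least 2-fold lower (2.73%), on a log2 scale with 5 CPM added to both sides. The median log2 ratio of all these genes was 0.13. With TMM or DESeq2 scaling that median moved to -0.01 or -0.02, and the split became 104 higher against 293 lower (26.2% of the called genes higher), or 100 against 298 (25.1%), in place of 42.0%. In cells with 1% to 2% mitochondrial UMIs, 543 members and 649 Ly6d-high cells, 45 genes were 2-fold higher and 65 lower, and 32 and 64 of these were among the main calls. Most of the 156 and 215 main calls were thus not called in that band. Most single ratios below are given without their value in it.

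The highest ratios on that scale belonged to Reg1, a secreted lectin of the Reg family, and to Pigr, the receptor that carries polymeric antibodies across the epithelium. Pigr was at 283 CPM in members, 73.4 in cells between the classes and 24.3 in Ly6d-high cells, an 11.7-fold difference (10.6 to 12.9, counting error only). Reg1, at 75.2 against 2.18 CPM, came from few cells, since 3.78% of members had a UMI at 5000 UMIs and 1 cell reached 167. Acot1, an acyl-CoA thioesterase and PPAR target, was 8.68-fold higher (220 against 25.3 CPM). Aldh1b1, a mitochondrial aldehyde dehydrogenase found in crypt cells, was at 382 against 53.02 CPM, and the galectin gene Lgals2 at 663 against 97.3. Ces2a, a carboxylesterase of enterocytes, stood at 1062 against 197 CPM. Antimicrobial and secreted defence genes, to which Reg1, Pigr and Dmbt1 belong, did not all point one way. For single lists the limit is 1.5-fold on the same log2 scale, which 9.36% of all genes passed upwards and 6.51% downwards. Of 7 measured, 4 passed 1.5-fold upwards and 2 downwards (median 1.01, and -0.0014 without the 10 CPM floor). The lower ones were the lectin gene Zg16, 5.78-fold (33.1 against 191 CPM), and the protease inhibitor family gene Wfdc2, 2.97-fold (66.7 against 198). Against Ly6d-high cells inside the secretory limits the log2 ratio of Zg16 was -0.07 and that of Wfdc2 -1.48.

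Crypt and progenitor genes leaned the same way. Smoc2, a matrix protein gene of crypt base stem cells, was 7.26-fold higher in members (69.6 against 9.59 CPM). Lgr5, the R-spondin receptor of those cells, was 4.39-fold higher (19.9 against 4.52 CPM, interval of the ratio 3.47 to 5.62). Of 9 measured crypt stem cell genes, 5 passed 1.5-fold upwards and 0 downwards (median log2 ratio 0.70). In the list of progenitor and early absorptive genes 8 of 13 were higher and 2 lower (median 1.06), among them Arg2, which breaks down arginine (93.9 against 21.3 CPM), and Oat, ornithine aminotransferase (352 against 91.2). The summed level of that list differed little, at 13765 CPM in members and 13333 in Ly6d-high cells. Among the 13 measured genes of enterocytes, 6 had higher and 2 lower levels (median 0.41): the glucose transporter Slc5a1 stood at 52.6 against 8.88 CPM, and Krt20, a keratin of differentiated cells, was lower at 166 against 495. The enterocyte median was -0.06 in cells of 1% to 2% mitochondrial UMIs.

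Mitosis genes were slightly higher in members than in the Ly6d-high class as a whole (median 0.52), as in Mki67 at 49.0 against 26.4 CPM. Of 21, 6 passed 1.5-fold upwards and 0 downwards. Of 15 DNA replication genes 2 were higher and 0 lower (median 0.36). In steps of Ly6d within the secretory limits, neither list fell steadily. Mitosis genes summed to 975 CPM at 0 Ly6d, 1351 up to 1 and 1370 to below 5. They reached 1538 CPM from 5 to below 10, then 615 to below 20 and 585 from 20. DNA replication genes summed to 391, 519, 474, 439, 412 and 249 CPM in these ranges. Against 1065 and 421 CPM in all members, Ly6d-high cells from 5 to below 10 were thus not lower. Intestinal transcription factors differed one by one. Cdx1, a caudal homeobox factor, was at 146 against 62.8 CPM, Hnf4g, a nuclear receptor of enterocytes, at 144 against 67.4, and Klf4 lower at 49.9 against 117. The list as a whole had 3 of 13 members higher and 1 lower (median 0.20).

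Enzymes that conjugate and detoxify were another higher group. Of 15 glutathione and conjugation genes 7 were higher and 2 lower (median 0.45), with Gstm1 at 3339 against 842 CPM and Gstm3 at 1358 against 277, while Gsta1 was lower at 1557 against 2870. Among 25 genes of fatty acid oxidation and PPAR response, 8 were higher and 4 lower (median 0.32). In the list of metal handling genes 4 of 13 were higher and 1 lower (median 0.52), with the metallothioneins Mt1 (792 against 225 CPM) and Mt2 (90.5 against 19.0) and the zinc and manganese transporter Slc39a8 (63.2 against 10.7). Mitochondrially encoded genes had 7 of 9 higher and 0 lower (median 0.71), which restates the difference in mitochondrial share, and a median of 0.22 in the cells of 1% to 2%.

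Retinoid genes pointed in both directions. In the list of retinoid metabolism and receptor genes, 15 were measured, 7 of them higher and 3 lower (median 0.36). The retinol dehydrogenase Adh1 was 6.98-fold higher (46.8 against 6.70 CPM) and the retinal dehydrogenase Aldh1a1 4.74-fold higher (51.4 against 10.8). The short-chain dehydrogenase Dhrs9 was 4.42-fold lower (5.27 against 23.3 CPM). Among the receptors, Rxra was 1.58-fold lower (1.29 to 1.95; 7.503 against 11.9 CPM). Rxrb was at 27.7 and 20.5 CPM, Rara at 18.5 and 20.6 and Rarg at 10.4 and 12.1, with Rxrg and Rarb at 0 UMIs in both classes.

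On the lower side, the regenerative and fetal-like list had 17 of its 19 measured genes lower in members by 1.5-fold or more and 0 higher, with a median log2 ratio of -1.74. It was -0.77 in cells with 1% to 2% mitochondrial UMIs. Msln, mesothelin, was 6.42-fold lower (111 against 712 CPM), Il1rn, the interleukin-1 receptor antagonist, 4.49-fold (75.2 against 338), Anxa1 4.28-fold (111 against 474) and Clu, a chaperone of reviving stem cells, 4.01-fold (37.8 against 152). S100a6 stood at 1355 against 5335 CPM and Ly6a at 526 against 1773, so members still held both in quantity. Psca, a Ly6 family gene of stomach and bladder epithelium, was lower by 41.6-fold (30.2 to 59.1; 1.70 against 70.7 CPM).

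Genes of the squamous-type barrier were lower in 13 of 21 cases and higher in 0 (median -0.72). They include the cornified envelope precursors Sprr1a (88.6 against 941 CPM) and Ivl (5.31 against 49.8) and the cornification gene Cnfn (2.01 against 34.9). All 6 simple epithelial keratins of the list were lower (median -1.42), as in Krt7 at 722 against 2301 CPM, Krt18 at 2701 against 6634 and Krt23 at 8.17 against 83.4. The mast cell protease gene Mcpt2 had the lowest log2 ratio with 5 CPM added (9.16 against 181 CPM), and Mal, a raft protein of apical transport, was 11.2-fold lower.

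Some signalling genes shared that direction. Of 8 YAP and TEAD targets 4 were lower and 1 higher, with a median of -0.60 that turned to 0.055 in the cells of 1% to 2% mitochondrial UMIs. F3, tissue factor, was at 211 against 839 CPM, whereas Ccn1 was higher at 18.0 against 3.38. Of 9 EGF ligand and receptor genes 3 were lower and 1 higher (median -0.40), including the ligand Areg at 1143 against 2545 CPM and Egfr at 14.1 against 33.3. The integrated stress response did not lean, with 1 of 21 genes higher and 2 lower (median -0.06). Its Ddit3, the CHOP factor, was at 82.0 against 176 CPM and Atf5 at 426 against 287. The same held for cholesterol biosynthesis, where 1 of 22 genes was higher and 0 lower (median 0.02).

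The enteroendocrine hormone gene Cck was at 2.90 against 23.7 CPM, but the Ly6d-high class has no limit on Chga and Chgb. Against the 1171 Ly6d-high cells inside the limits its log2 ratio was 0.13.

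**Figure D3:**
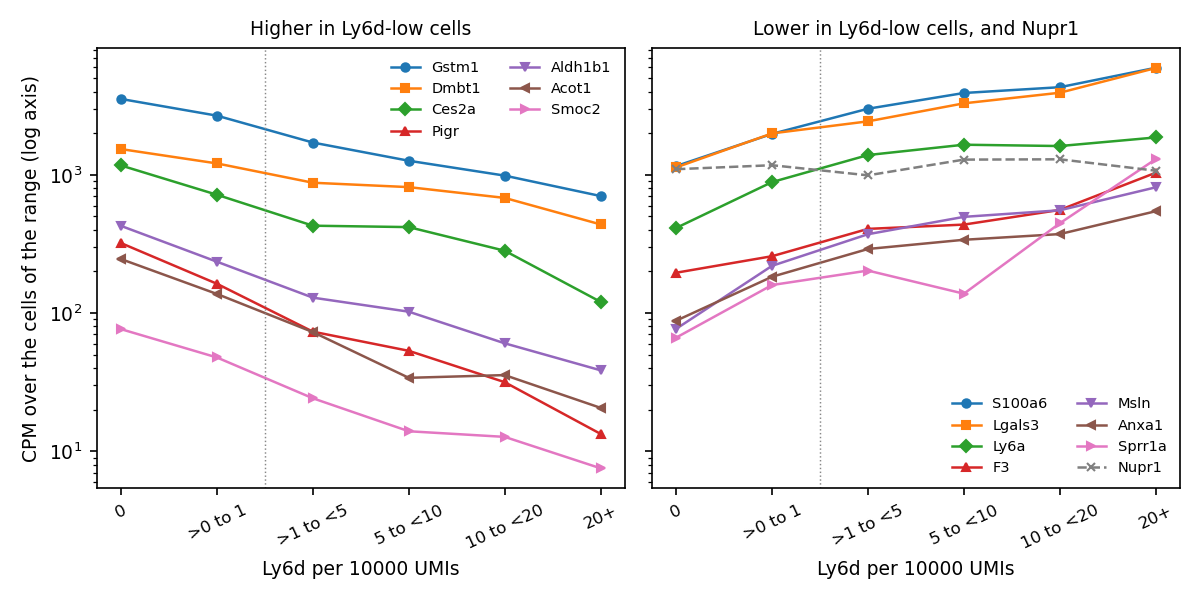
CPM on a log axis (y) of 7 genes higher in Ly6d-low cells (left) and 7 lower ones with Nupr1 (right) over 6 ranges of Ly6d per 10000 UMIs (x), from 1370 cells at 0 to 750 cells at 20 or more; the dotted line marks the limit of the class. Levels slope across the ranges on both sides of the limit, for instance Pigr from 321 to 13.4, and Nupr1 stays between 993 and 1297.

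Cells on both sides of the limit were also read in steps of Ly6d. Since the genes were chosen for differing between the low and the high end of Ly6d, an order along it is largely built in and is given as a description. The antagonist cells inside the secretory limits were divided into 6 ranges of Ly6d, holding 1370, 340, 412, 179, 242 and 750 cells. Pigr was at 321 CPM in cells with 0 Ly6d, 163 above 0 and up to 1, 73.4 up to 5, 53.3 up to 10, 31.6 up to 20 and 13.4 above. Msln went the other way, at 76.9, 220, 372, 497, 554 and 813 CPM. Ly6a levelled out early, at 413, 887, 1392, 1654, 1617 and 1866 CPM. Sprr1a was steepest at the top, at 66.4, 160, 203, 138, 447 and 1300 CPM. Median mitochondrial share followed the same order, from 2.34% in cells with 0 Ly6d to 1.198% in those at 20 or more, and beyond the band of 1% to 2% above its part in these slopes was not tested.

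Several of these genes are neighbours in the genome (GRCm38, GENCODE vM21 annotation). The stretches below were chosen after the values had been seen, the first around the gene that chose the cells, so their counts are a description. Over all genes, 2.73% were at least 2-fold lower in members than in Ly6d-high cells and 1.98% higher. Around Ly6d itself, at chr15:74762056-74763620, 9 of the 10 measured genes in chr15:74313452-75459905 were at least 2-fold lower in members: Psca, Lynx1, Gml, Gml2, Ly6m, Ly6a, Ly6c1, Ly6g and Ly6g2. In the stretch of small proline-rich, involucrin and S100 genes, chr3:90011034-94026287, 7 of 26 measured genes were lower and 0 higher, among them Sprr1a, Sprr2f, Ivl, S100a6, S100a11 and S100a14. The glutathione transferase stretch chr3:107426334-108517973 held 6 higher genes of 15, namely Gstm1, Gstm2, Gstm3, Gstm4, Gstm6 and Gstm7, and 0 lower. Some of these genes are close copies of one another, as in the Gstm stretch, and the assignment of UMIs between such copies is uncertain.

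The members were not 1 uniform group. In a clustering of all antagonist barcodes into 8 clusters, 5 clusters held all but 2 members. Cluster 1 took 724 members (42.3%) and was led by Reg1, Arg2, Fabp1 and Gstm3. Cluster 4 took 503 (29.4%), was led by Aldh1b1, Pigr, Smoc2 and Mt2, and consisted of members to 88.1%. Cluster 5, with 181 members (10.6%), was cycling-like, with Cdc20, Top2a, Mki67 and Ccnb1 among its 10 leading genes. Clusters 2 and 3 took 159 and 141 members and consisted mainly of Ly6d-high cells, 561 and 357 of them. Clusters 1 to 4 are given by number, since fewer than 3 of the fixed markers of any type stood among their leading genes. The grouping depends on the setting. In a finer clustering into 13 clusters, 252 members (14.7%) fell in a cluster led by Dmbt1, Lypd8, Slc26a3 and Azgp1. Cycling genes there led 2 clusters, 1 with 101 members and 0 Ly6d-high cells, the other with 90 members and 100 Ly6d-high cells.

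**Figure D4:**
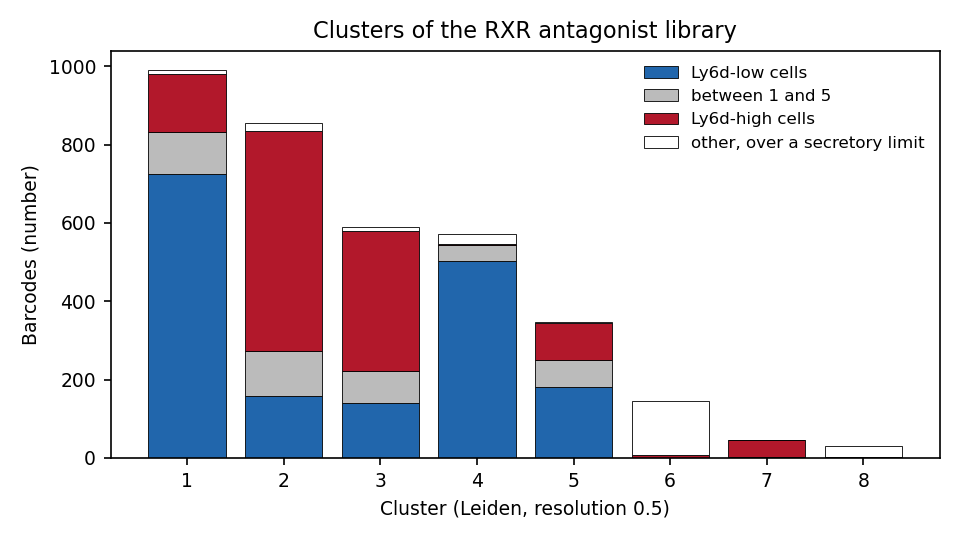
Number of barcodes (y axis) in each of the 8 clusters of the RXR antagonist library (x axis), divided into Ly6d-low, in-between, Ly6d-high and other barcodes over a secretory limit. Most of clusters 1 and 4 and part of cluster 5 are Ly6d-low cells, while clusters 2, 3 and 7 are mostly Ly6d-high.

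Members differed widely from cluster to cluster. Fabp1, the fatty acid-binding protein of enterocytes, was at 12262 CPM in members of cluster 1, 334 in cluster 2, 3075 in cluster 3, 487 in cluster 4 and 713 in cluster 5. It was also the gene with the largest variance over mean among 7642 genes ranked in members, ahead of Reg1, Sprr1a, Sprr2a3 and Ctrb1. Lgr5 was at 34.4 CPM in cluster 4 and 38.0 in cluster 5, against 10.9, 8.81 and 3.08 in clusters 1, 2 and 3. Mki67, the proliferation antigen, was at 348 CPM in cluster 5 and 6.03 to 11.2 in the others.

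The Ly6d limit did not remove regenerative RNA from all of them. Ly6a was at 231 and 217 CPM in members of clusters 1 and 4, and at 1496, 992 and 1182 in those of clusters 2, 3 and 5. Msln showed the same split, at 17.3 and 18.7 CPM in clusters 1 and 4 and 355, 228 and 378 in clusters 2, 3 and 5. Ly6d itself was low throughout, from 12.5 to 27.7 CPM, as the rule requires. Members of cluster 3 stood out for Areg (4975 CPM, against 541 to 1358 in the others), for the claudin gene Cldn4 (1375 against 37.7 to 75.3), for Ddit3 (468 against 47.6 to 55.0) and for Nupr1 (2812 against 500 to 1177). Since all genes served to cluster the cells, these values describe the clusters and test nothing.

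Against vehicle cells of day 4 chosen by the same rule, members lacked most enterocyte RNA and held far more regenerative RNA. Of 8288 genes, 399 were at least 2-fold higher in members (4.81%) and 575 lower (6.94%), with a median log2 ratio of 0.08. At 1.5-fold the shares were 12% and 12.8%. Likeness over 9168 genes, as Pearson's r of log2 CPM, was 0.963 between members and Ly6d-high cells, 0.875 with the vehicle, 0.880 without vitamin A, 0.808 under retinoic acid, and 0.850 and 0.870 at day 1. Genes are not independent replicates, and the first pair shares a library.

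Of 27 enterocyte genes 25 were lower and 0 higher than in the vehicle, with a median log2 ratio of -3.59 (-3.63 with genes at 0 UMIs set at their bound). The apolipoprotein genes were close to absent: Apoa1 had 1 UMI in all members (0.0447 against 2520 CPM), and Apoa4 had 0, which makes it at least 7709-fold lower by a floor of 3 counts over the class. The disaccharidase Sis was at 5.18 against 2002 CPM and Apob, the chylomicron scaffold, at 0.581 against 368. Fabp1 and Rbp2, the enterocyte carriers of fatty acids and retinol, were lower by less, at 5744 against 22013 and 1155 against 6438 CPM. Ccl25, a gut chemokine, was 37.4-fold lower.

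Regenerative and fetal-like genes had 17 of 18 measured members higher and 0 lower (median 3.95). Ly6a was at 526 against 1.93 CPM, S100a6 at 1355 against 52.9, Lgals3 at 1339 against 49.8 and Anxa3 at 546 against 6.81. Msln had 2 UMIs and Ly6g 1 UMI in all vehicle cells, and stood at 111 and 128 CPM in members. Tff1, a trefoil peptide gene of the stomach, was at 56.0 CPM in members and at 0 UMIs in the vehicle, hence at least 949-fold higher. Squamous-type genes (14 of 17 higher, 0 lower, median 0.99) and simple keratins (4 of 5 higher, 0 lower, median 1.99) had the same direction. For Ly6a the values in members, Ly6d-high cells and vehicle cells side by side were 526, 1773 and 1.93 CPM, and for Sprr1a 88.6, 941 and 4.51.

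Stem cell genes of the crypt were lower than in the vehicle, with 10 of 14 lower and 1 higher (median -1.27). Olfm4, a secreted glycoprotein of stem cells, was at 1.30 against 286 CPM, Ascl2, their master factor, at 1.16 against 12.8, and Lgr5 at 19.9 against 36.8. DNA replication (18 of 19 lower, 0 higher, median -0.999) and mitosis genes (16 of 22 lower, 0 higher, median -0.79) were lower too. The stress and redox lists leaned the other way. Of 21 integrated stress response genes 12 were higher and 0 lower (median 0.77), including the cystine transporter Slc7a11 at 97.4 against 6.36 CPM and the serine enzyme Phgdh at 302 against 90.5. Of 18 NRF2 targets 8 were higher and 0 lower (median 0.56), and of 20 glycolysis and hypoxia genes likewise 8 and 0 (median 0.47).

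Targets of RXR partner receptors were mostly lower than in the vehicle, except for PPAR targets. In the list of VDR, PXR and CAR targets 8 of 14 were lower and 0 higher (median -1.38), with Cyp3a11 and Cyp3a25 at 0 UMIs in members against 88.0 and 128 CPM. Of 11 LXR target and lipogenesis genes 6 were lower and 0 higher (median -0.61), led by the sterol exporters Abcg5 (8.93 against 145 CPM) and Abcg8 (8.71 against 107). PPAR targets split, 6 of 25 higher and 6 lower (median 0.23). Of 14 retinoid genes 10 were lower and 2 higher (median -0.995), with Rdh7 at 3.44 against 213 CPM and Adh1 at 46.8 against 606, and with Rarg, a retinoic acid receptor, higher at 10.4 against 2.50. Rxra was 2.69-fold lower (7.503 against 20.2 CPM).

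Isx, a homeobox repressor that retinoic acid induces in enterocytes, was at 112 CPM in members, 52.9 in Ly6d-high cells, 175 in the vehicle, 207 under retinoic acid and 0.0202 without vitamin A, and at 1.04 and 0.665 at day 1. Bco1, the carotene-cleaving enzyme that Isx represses, was at 0.447 CPM in members, 1.12 in the vehicle and 47.1 without vitamin A. Of the genes higher in members than in Ly6d-high cells, Pigr was at 781 CPM in the vehicle against 283 in members, Acot1 at 243 against 220, and Gstm1 at 2257 against 3339. Goblet genes were higher in members than in the vehicle (5 of 5, median 1.42), as in Spink4 at 114 against 39.4 CPM, although the rule removed mucus-rich cells from both. Agr2 was at 590 against 50.6 CPM, but the enteroendocrine-like cells gave no background level for it, and its part of free RNA was not tested.

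**Figure D5:**
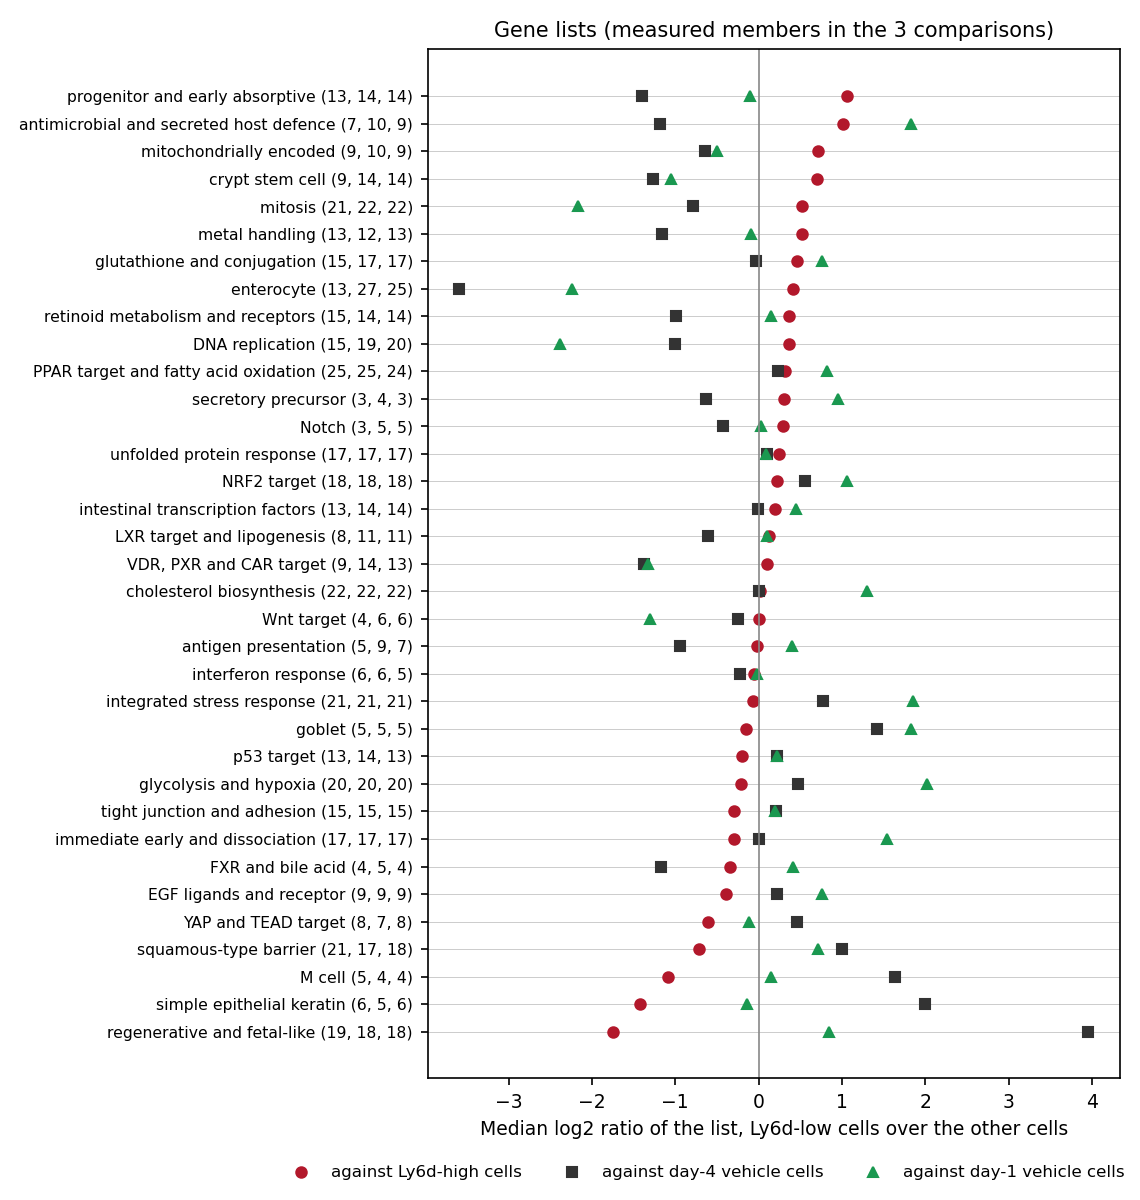
Median log2 ratio (x axis) of the gene lists with at least 3 measured members (y axis, with the number measured in each comparison) in Ly6d-low cells over Ly6d-high cells (circles), day-4 vehicle cells (squares) and day-1 vehicle cells (triangles). Regenerative genes lie at -1.74, 3.95 and 0.84, and enterocyte genes at 0.41, -3.59 and -2.24; all 3 comparisons share the Ly6d-low cells, so their positions are not independent.

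Against day-1 cells under the same rule, members were poor in cell cycle RNA and rich in glycolytic, stress and sterol RNA. Day 1, treatment and library differ together here and cannot be told apart. In the totals over all genes, a gene was counted only when its direction held against both day-1 libraries, which may be technical repeats of 1 culture. The counts within gene lists used the mean of both libraries without that condition. Of 8525 genes, 637 were higher by 2-fold or more (7.47%) and 1130 lower (13.3%), and at 1.5-fold 16.5% and 24.7%, with a median of -0.09. All 20 glycolysis and hypoxia genes were higher (median 2.02), including Ndrg1 at 1077 CPM against 34.1 and 75.8, and Hk1, hexokinase, at 93.9 against 4.65 and 6.30.

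Of 21 integrated stress response genes 16 were higher and 0 lower (median 1.86), and of 22 cholesterol biosynthesis genes 18 higher and 1 lower (median 1.30), with farnesyl diphosphate synthase Fdps at 485 CPM against 99.3 and 83.8. All 20 DNA replication genes and all 22 mitosis genes were lower (medians -2.38 and -2.16), with Mki67 at 49.0 CPM against 354 and 310. Enterocyte genes had 19 of 25 lower and 0 higher (median -2.24), with Sis at 5.18 against 220 and 418. Regenerative genes had 10 of 18 higher and 0 lower (median 0.84): Ly6a was at 526 CPM against 125 and 129, and S100a6 at 1355 against 931 and 950, whereas Clu differed little, at 37.8 against 28.6 and 44.3. Nupr1 and Dmbt1 had the 2 highest log2 ratios of this comparison with 5 CPM added.

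The day-1 libraries allowed the Ly6d ordering to be read in cells that the choice of members did not use. There, 83 and 84 cells inside the secretory limits had Ly6d above 1 per 10000, with median depths of 9132 and 11879 UMIs, and they were set against the 5152 and 4481 cells at or below it. Of the 215 genes lower in antagonist members, 117 reached 10 CPM in at least 1 of the 2 Ly6d classes of both day-1 libraries. A gene could thus enter through the few Ly6d-positive cells alone. Ly6g did so, at 3.70 and 4.38 CPM in Ly6d-low cells against 17.8 and 21.8. In the first day-1 library Psca (6.63 against 44.6 CPM) and Sprr1a (5.40 against 35.7) did so too. The number of such genes among the 117 is not given here. For such genes the lower direction was built in, so the shares that follow are a description and do not count as a repeat of the ordering. The same limit was used for all 7201 genes. In 110 of them (94.0%) the level was also lower in Ly6d-low cells of both, against 28.1% of all 7201 measured genes. For 82 (70.1%) the difference was at least 1.5-fold in both libraries, against 2.58% of all genes. Msln was at 68.3 against 298 CPM and 126 against 358, Ly6a at 125 against 412 and 129 against 459, and F3 at 45.4 against 194 and 71.4 against 292.

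The higher genes were less marked at day 1. Of 143 that could be measured, 121 (84.6%) were higher in Ly6d-low cells of both libraries, against 39.0% of all genes, and 20 (14.0%) by at least 1.5-fold, against 0.5%. Pigr was at 162 against 63.6 CPM and 167 against 53.6, and Gstm3 at 290 against 71.4 and 635 against 226. Smoc2 and Lgals2 differed by less, at 104 against 79.2 and 76.3 against 52.6, and at 1967 against 1565 and 1924 against 1525. Dmbt1 did not follow: it was lower in Ly6d-low day-1 cells, at 31.7 against 41.3 and 19.5 against 30.8 CPM. This comparison was chosen after the antagonist values had been seen, rests on few Ly6d-positive cells, and has no test.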

How the data were processed

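Single-cell RNA of organoids was counted on a droplet platform with 3-prime libraries, per the labels. The authors deposited raw UMI counts per gene and barcode, with no normalization, in 55335 genes; the submitters' processing notes name bcl2fastq 2.17, Cell Ranger 3.1.0 and GRCm38, and the aligner and gene annotation are not given in the sources used here. Of the gene identifiers, 98.65% matched GENCODE vM21, which gave positions. All barcodes were used as deposited. The members, gene lists, comparisons and marker lists were chosen with earlier results of these data known.

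UMIs were summed over the cells of a class and scaled to CPM. For log2 ratios 5 CPM were added to both sides, and genes had to reach 10 CPM in a class; the 6 genes of the rule were left out. Folds are ratios of CPM, with exact conditional binomial intervals, Poisson intervals for CPM and Clopper-Pearson intervals for shares (95%), all covering counting error only. A gene at 0 UMIs was given a floor of 3 counts over the class. Shares used cells thinned to 5000 UMIs, leaving out 70 shallower members and 105 Ly6d-high cells. The day-1 mean weighted both libraries equally. No p-value was computed. Ratios were checked on simulated counts.

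Clusters came from log-normalized counts in scanpy 1.11.5 (Leiden, resolution 0.5) with Python 3.11.15, and a finer resolution was an alternative. Scrublet's own threshold marked 0 antagonist barcodes and did not work as a filter, so doublets were kept, and removal of the 102 highest scores (21 members, 47 Ly6d-high cells) was an alternative. Others were the floor, the added 5 CPM, TMM (edgeR 4.0.16) and DESeq2 1.42.0 factors, equal weight of cells, the Ly6d limit, a depth window, the secretory limits and each day-1 library left out. The band of 1% to 2% mitochondrial UMIs was added after seeing the data. Named genes were the 15 highest and 15 lowest ratios of each comparison without predicted genes, up to 4 of each of 43 lists, the 3 labelled markers, the retinoid receptors and the 10 most variable genes in members. Other genes named, such as genome neighbours, the day-1 examples and the cluster values, were chosen after their values were seen. Some genes that the rule names are not reported here.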

Additional observations from a re-analysis of the deposited data

How the results depend on the processing

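No paired analysis between conditions was possible, because each day-4 condition has 1 library. The replicate numbers of the samples state no pairing of cultures. Counts of genes 2-fold apart moved with the low-value floor: at 50 CPM they were 85 higher and 114 lower against Ly6d-high cells, 229 and 310 against the vehicle, and 392 and 623 against day 1. Against Ly6d-high cells, a pseudocount of 1 CPM gave 264 higher, DESeq2 size factors 100 higher, and cells with 1% to 2% mitochondrial UMIs 45 higher and 65 lower. Leaving out 1 day-1 library gave 569 to 736 higher and 1023 to 1250 lower. The number of members was 1370 with 0 Ly6d UMIs and 1906 with up to 2 per 10000.

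Values at least 1.5-fold apart turned in the following cases. Against Ly6d-high cells without a floor, the Paneth median was -0.016, the tuft median 0.15 and the antimicrobial median -0.0014. The log2 ratio of Cck was 0.11 in cells of 10000 to 20000 UMIs and 0.13 against Ly6d-high cells within the limits. In cells with 1% to 2% mitochondrial UMIs the Paneth median was -0.44, the YAP and TEAD median 0.055, Ctrb1 -0.33, Ccnd1 0.15, Itln1 -0.91, Ajuba 0.10, Ddit4 0.011 and Slc10a2 0.0077. Against the vehicle, the Paneth median was 2.02 at a floor of 50 CPM. Against day 1, the secretory precursor median of 3 genes was -0.034 without a floor, -0.19 at 50 CPM, -0.19 with equal weight of cells, -0.13 with 0 Ly6d UMIs and from -0.16 to 0.83 with 1 day-1 library left out. Without a floor more genes enter, and at 50 CPM, in the depth window and in the mitochondrial band fewer genes or cells do; for the rest the cause was not tested. Of the list medians recomputed, 1243 stayed within 1.5-fold of the reported value, 53 moved further and 11 turned. For the log2 ratios of named genes, 3865 recomputed values stayed within counting error of the reported one, 1349 moved further and 8 turned. With 1 library per day-4 condition, no spread between cultures could be measured.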
